A study of Rattus norvegicus with 23 samples.

Results

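Collagens and laminins are the structural proteins of the lung's fibres and basement membranes. They were followed here as 48 protein-coding genes, chosen by symbol alone (Col followed by a chain number, or Lama, Lamb and Lamc chains), of 19249 genes in the deposited table. By textbook role, 9 were fibrillar collagens, 18 were basement membrane chains (type IV, XV and XVIII collagens and the laminins) and 21 were other collagens. The lungs came from male rats that breathed filtered air (7 libraries), or were exposed with the whole body to eucalyptus smoke at a low level with a target carbon monoxide of 10 ppm (8 libraries) or a high level with a target of 20 ppm (7 libraries). Smoke was given on 4 days of the first week and, after 3 days without it, on 3 days of the second, over 2 weeks in all. Each library was made from the total RNA of frozen lung of 1 rat. Strain and age are not given in the sources used here, and 1 further high smoke sample in the labels was not analysed here. A piece of lung holds many cell types, and in such bulk RNA fewer cells of a type and less RNA per cell cannot be told apart.

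Collagen chains wind into triple helices. Fibrillar collagens pack into the cables that resist stretch in the airway wall, vessels and alveolar septum, whereas type IV collagen forms a sheet. That sheet and a laminin sheet are the main networks of every basement membrane, the thin layer that in the alveolus lies between epithelium and capillary. Laminins are cross-shaped trimers of an alpha (Lama), a beta (Lamb) and a gamma (Lamc) chain. Type IV trimers are known to join Col4a1 with Col4a2 in nearly all basement membranes and Col4a3 with Col4a4 and Col4a5 in those of the alveolus and glomerulus. A further kind joins Col4a5 with Col4a6.

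The type IV genes sit in head-to-head pairs, each pair transcribed outward from a short shared stretch of DNA. The start regions of both autosomal pairs are shown because chains of these pairs varied together between rats, as described further on. The windows are 300 bases long, read 5′ to 3′ on the strand of each gene, from RefSeq in build GRCr8. Capitals mark the bases that lie in the windows of both genes of a pair, which therefore appear in the partner as the reverse complement. Col4a1 lies at chr16:84885347-84885646 on the plus strand, Col4a2 at chr16:84885471-84885770 on the minus strand, Col4a3 at chr9:91323740-91324039 on the plus strand and Col4a4 at chr9:91323528-91323827 on the minus strand.
Col4a1: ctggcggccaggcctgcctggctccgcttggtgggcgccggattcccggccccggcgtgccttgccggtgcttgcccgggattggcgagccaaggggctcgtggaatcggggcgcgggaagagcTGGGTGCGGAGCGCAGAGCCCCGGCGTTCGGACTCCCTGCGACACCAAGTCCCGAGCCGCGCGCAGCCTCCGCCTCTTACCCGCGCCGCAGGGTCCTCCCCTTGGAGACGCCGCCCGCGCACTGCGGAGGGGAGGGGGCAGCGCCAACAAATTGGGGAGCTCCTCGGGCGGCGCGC
Col4a2: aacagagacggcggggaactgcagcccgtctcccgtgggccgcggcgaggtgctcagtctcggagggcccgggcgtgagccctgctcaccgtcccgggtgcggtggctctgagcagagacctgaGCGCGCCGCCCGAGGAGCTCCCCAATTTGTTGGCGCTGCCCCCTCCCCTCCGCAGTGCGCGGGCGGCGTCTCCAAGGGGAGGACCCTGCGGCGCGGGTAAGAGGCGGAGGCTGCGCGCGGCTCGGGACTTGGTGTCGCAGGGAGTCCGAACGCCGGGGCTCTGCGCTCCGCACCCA
Col4a3: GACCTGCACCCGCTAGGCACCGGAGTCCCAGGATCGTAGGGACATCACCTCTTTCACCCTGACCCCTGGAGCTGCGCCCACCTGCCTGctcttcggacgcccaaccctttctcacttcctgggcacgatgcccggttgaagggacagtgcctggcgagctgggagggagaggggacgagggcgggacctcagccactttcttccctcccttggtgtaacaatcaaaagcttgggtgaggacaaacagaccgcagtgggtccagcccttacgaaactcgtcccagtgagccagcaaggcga
Col4a4: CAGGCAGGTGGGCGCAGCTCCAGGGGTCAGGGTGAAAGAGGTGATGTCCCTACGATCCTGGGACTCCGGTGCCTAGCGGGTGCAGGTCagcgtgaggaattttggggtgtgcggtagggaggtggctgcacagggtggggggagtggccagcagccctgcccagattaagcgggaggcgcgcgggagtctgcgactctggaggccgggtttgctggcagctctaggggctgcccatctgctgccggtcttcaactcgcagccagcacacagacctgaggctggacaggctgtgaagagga
The start sites of Col4a1 and Col4a2 were 77 bases apart and their windows shared 176 bases. Those of Col4a3 and Col4a4 were 413 bases apart with 88 shared bases, and those of Col4a5 and Col4a6 on chromosome X were 1415 bases apart with none shared. The windows of all 39 members matched by symbol (of 48) were searched on both strands for short promoter motifs. The GC box, spelled GGGCGG, was in 23 of these windows, against 33.1% of the 33465 windows of all genes. The CCAAT motif was in 13 of the 39, against 37.5% of all windows. The TATA box was searched with the letters TATAAA and was in 4 of the 39, against 14.2% of all windows. No motif contains another. Col4a1 held a GC box at -16 and 39 and CCAAT at -170 and 24, counted from the start site, and Col4a3 held 1 GC box, at -72. Windows of the members had a median GC content of 59.7%, against 51.7% for all windows. These are matches of letters and say nothing of which factors bind.

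Of the 48 members, 40 had a mean of at least 10 normalized counts (reads counted per gene, scaled by the size factor of each library) and were tested: 8 fibrillar, 17 basement membrane and 15 other. Those just above that limit were Col11a1 (mean 13.3) and Col9a2 (19.7), and just below it was Col24a1 (9.11). The other 7 below it were Lama1, Col10a1, Col19a1, Col22a1, Col26a1, Col28a1 and Col9a3. Read equivalents per library ran from 8484131 to 12055512. On the first principal component of all tested genes, which held 19.7% of the variance, scores of 51.5, 41.7 and 36.5 were those of high smoke replicates 1, 3 and 7. The other 4 high smoke libraries lay between 0.30 and 8.77, low smoke between -12.7 and -1.81 and air between -21.6 and -0.29. These 3 libraries stood apart within their group, so values without them are given with the results that passed the test. They were picked from the same values that are tested, and lay farthest from air on this component. Without them only 4 high smoke libraries remain, so a call lost there does not show that a difference is absent. Lung markers were present in all libraries: the 8 alveolar type 2 markers summed to between 171165 and 285304 normalized counts, and the 8 alveolar type 1 markers to between 58155 and 84252.

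The first comparison asked what repeated exposure to the higher smoke level did to these genes. The basement membrane chain Col4a1 and the fibrillar chain Col5a2 rose 1.22-fold and 1.18-fold, and the laminin chain Lama4 fell by 0.23 on the log2 scale, while the abundant fibrillar chains Col1a1 and Col3a1 did not pass the test. Thus 3 of 40 members, or 7.5%, passed an adjusted p of 0.05 in limma, against 16.3% of all 14414 genes tested; 2 rose (9.21% of all genes did) and 1 fell (7.05%). The median log2 difference of the 40 was 0.02, with 22 above 0 and 18 below, beside -0.0021 for all genes, of which 49.6% lay above 0 and 50.4% below. An unadjusted p below 0.05 was found for 8 of the 40, against 30.7% of all genes. With libraries scaled to the same total, which moved the median of all genes to -0.08, 14 members lay above 0 and 26 below, 1 member passed, and the calls over all genes turned from 1327 up and 1016 down to 894 up and 1797 down (1188 and 1199 at the same upper quartile). No member had groups that did not overlap, against 1.87% of all genes. Without high smoke replicates 1, 3 and 7, none of the 40 passed, and 124 of all genes did.

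Col4a1 (chr16:83522162-83632154 in build rn6, plus strand) encodes a chain of the ubiquitous type IV network. It had 7311, 8801 and 10142 normalized counts as lowest, median and highest value in air, 9140, 9598 and 11534 in low smoke, and 8797, 10866 and 14041 in high smoke. All 7 high smoke libraries lay above the mean of the log2 values in air, the mean used for all such counts here, and 6 of 7 above the mean of the counts themselves; the groups overlapped. The rise was 1.22-fold (95% interval 1.08 to 1.38), or 0.29 in log2 units (SE 0.085; adjusted p = 0.0228 in limma). High smoke replicate 1 held the highest value, and without it the difference was 0.225 and no longer passed (adjusted p = 0.0604). Without replicates 1, 3 and 7 it was 0.18 (adjusted p = 0.349), and with libraries scaled to the same total it was 0.21 (adjusted p = 0.0561). The call was also lost in a fit of only the 2 groups and with the rank-sum test.

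Its partner Col4a2 had 2560, 3352 and 3599 in air, 3291, 3573 and 4394 in low smoke, and 3059, 3750 and 4548 in high smoke. The difference of 0.28 (SE 0.097, limma adjusted p = 0.0536) was nearly that of Col4a1 but did not pass, and 6 of 7 high smoke libraries lay above the air mean. It passed once the level limit was raised to a mean of 50 (adjusted p = 0.0466). Across the 6 type IV chains the median difference was 0.17, with 5 above 0 (0.09 and 3 above 0 with libraries scaled to the same total). Col4a6, singled out after its values were seen, stood at 0.30 (adjusted p = 0.0676). The alveolar chains Col4a3 (0.06), Col4a4 (-0.01) and Col4a5 (0.02) had adjusted p of 0.759 or more, with 95% intervals of -0.17 to 0.29, -0.21 to 0.20 and -0.15 to 0.19. Col15a1, which links basement membranes to the fibres beneath them, stood at 0.21 and Col18a1, the source of endostatin, at 0.07; neither passed (adjusted p = 0.214 and 0.591).

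**Figure D1:**
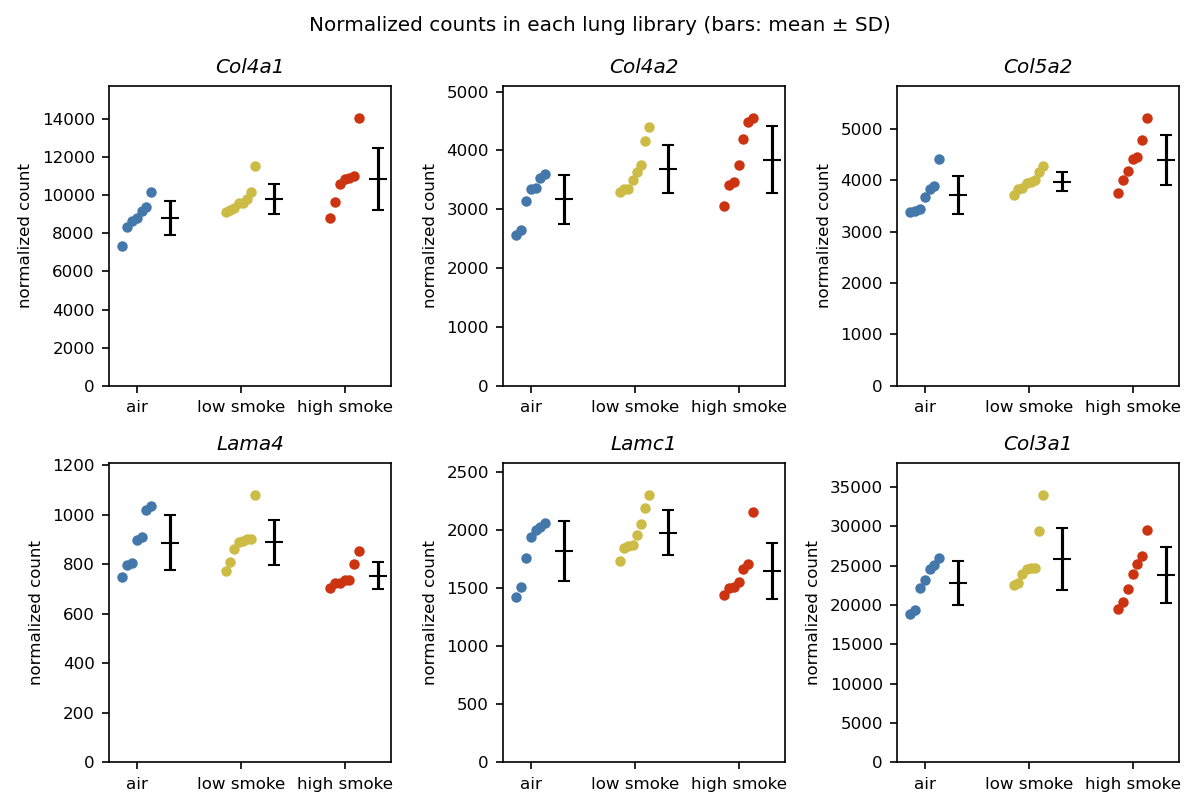
Normalized counts (y axis, from 0) of 6 members in each lung library, by group (x axis); each point is 1 rat, ordered by value within its group, and bars give mean ± SD (n = 7, 8 and 7). Col4a1 and Col5a2 sit higher and Lama4 lower in high smoke than in air, with overlap in every panel.

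Among the laminins the direction was mostly the other way: 7 of the 9 tested chains lay below 0 in high smoke against air, with a median of -0.11 (8 of 9 and -0.19 with libraries scaled to the same total, and a median of -0.06 without high smoke replicates 1, 3 and 7). Lama4 (chr20:44060731-44209615, plus strand), the alpha chain of laminins of vessel walls and muscle, was the 1 that passed. Its lowest, median and highest values were 746, 898 and 1036 in air, 772, 893 and 1081 in low smoke, and 705, 734 and 853 in high smoke. All 7 high smoke libraries were below the air mean. Lama4 fell by 0.23 on the log2 scale (SE 0.079, 95% interval -0.39 to -0.07, limma adjusted p = 0.0484). This call sat close to the threshold: it remained in 6 of the 22 fits that each left out 1 library, with adjusted p from 0.0207 to 0.116, and the difference was still -0.23 without high smoke replicates 1, 3 and 7 (adjusted p = 0.278). The call was also lost with no level limit, in a fit of only the 2 groups and with the rank-sum test.

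Lama5, the alpha chain of epithelial and vascular laminins, had 1921, 2808 and 3082 in air and 2223, 2282 and 2725 in high smoke, a difference of -0.12 (adjusted p = 0.324). Lamb2 stood at -0.13 (0.428), Lamb1 at -0.11 (0.473) and Lamc1, the gamma chain of most laminins, at -0.14 (0.325). For Lamc1 air ran from 1423 to 2058 with a median of 1940, and high smoke from 1437 to 2149 with a median of 1553. None of these 4 passed the test. Lamb3, a beta chain of the laminin that anchors epithelial cells, stood the other way at 0.28 (adjusted p = 0.073; singled out after its values were seen).

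Among the fibrillar collagens, Col5a2 (chr9:52092511-52238565, minus strand) passed. It encodes a chain of type V collagen, which starts fibrils and sets their width. Col5a2 had 3374, 3673 and 4406 in air, 3710, 3956 and 4278 in low smoke, and 3748, 4404 and 5203 in high smoke. All 7 high smoke libraries lay above the air mean, and the groups overlapped. It rose 1.18-fold (1.07 to 1.31), or 0.24 in log2 units (SE 0.070; adjusted p = 0.022 in limma). The call was lost without air replicate 1, high smoke replicate 1 or its replicate 3 (highest adjusted p 0.0603), without high smoke replicates 1, 3 and 7 together (0.18, adjusted p = 0.274) and with libraries scaled to the same total (0.16, adjusted p = 0.0601). It was also lost with array weights, in a fit of only the 2 groups and with the rank-sum test.

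The main chains of the large fibrils moved less than their spread. Col1a1, a chain of type I collagen, had 2601, 3688 and 5147 in air and 2827, 3930 and 5531 in high smoke, a difference of 0.10 with a 95% interval of -0.22 to 0.42 (limma adjusted p = 0.698). Col3a1, the type III chain of distensible tissue, had 18786, 23178 and 25999 in air and 19476, 23953 and 29534 in high smoke, a difference of 0.06 with an interval of -0.15 to 0.28 (adjusted p = 0.722). Scaling to the same total put Col3a1 at -0.01. Col11a2 (0.27) and Col5a1 (0.14) had the next smallest p of the class and did not pass (adjusted p = 0.303 and 0.360). Over the 8 fibrillar chains tested, 6 lay above 0 and the median was 0.12, or 5 and 0.05 with libraries scaled to the same total; the median was 0.065 when high smoke replicates 1, 3 and 7 were left out.

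None of the 15 other collagens passed. Col6a2, a chain of the beaded filaments of type VI collagen, stood at 0.21 (limma adjusted p = 0.115) and its partner Col6a1 at 0.13 (0.206). Col9a2, a chain of cartilage collagen IX, was between 9.25 and 31.3 in air (median 14.0) and between 16.5 and 34.3 in high smoke (median 21.8), a difference of 0.56 with a wide interval of 0.03 to 1.09 (adjusted p = 0.139). Cartilage of the airways can enter a piece of lung: of 8 cartilage markers found, 6 (Acan, Matn3, Cnmd, Hapln1, Snorc and Ucma) had means below 10, and the 8 summed to 101 to 183 in air, 89.3 to 170 in low smoke and 102 to 262 in high smoke. Their part in the Col9a2 values was not tested. Col6a4 stood at 0.02 with an interval of -0.69 to 0.73, the widest of this class.

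**Figure D2:**
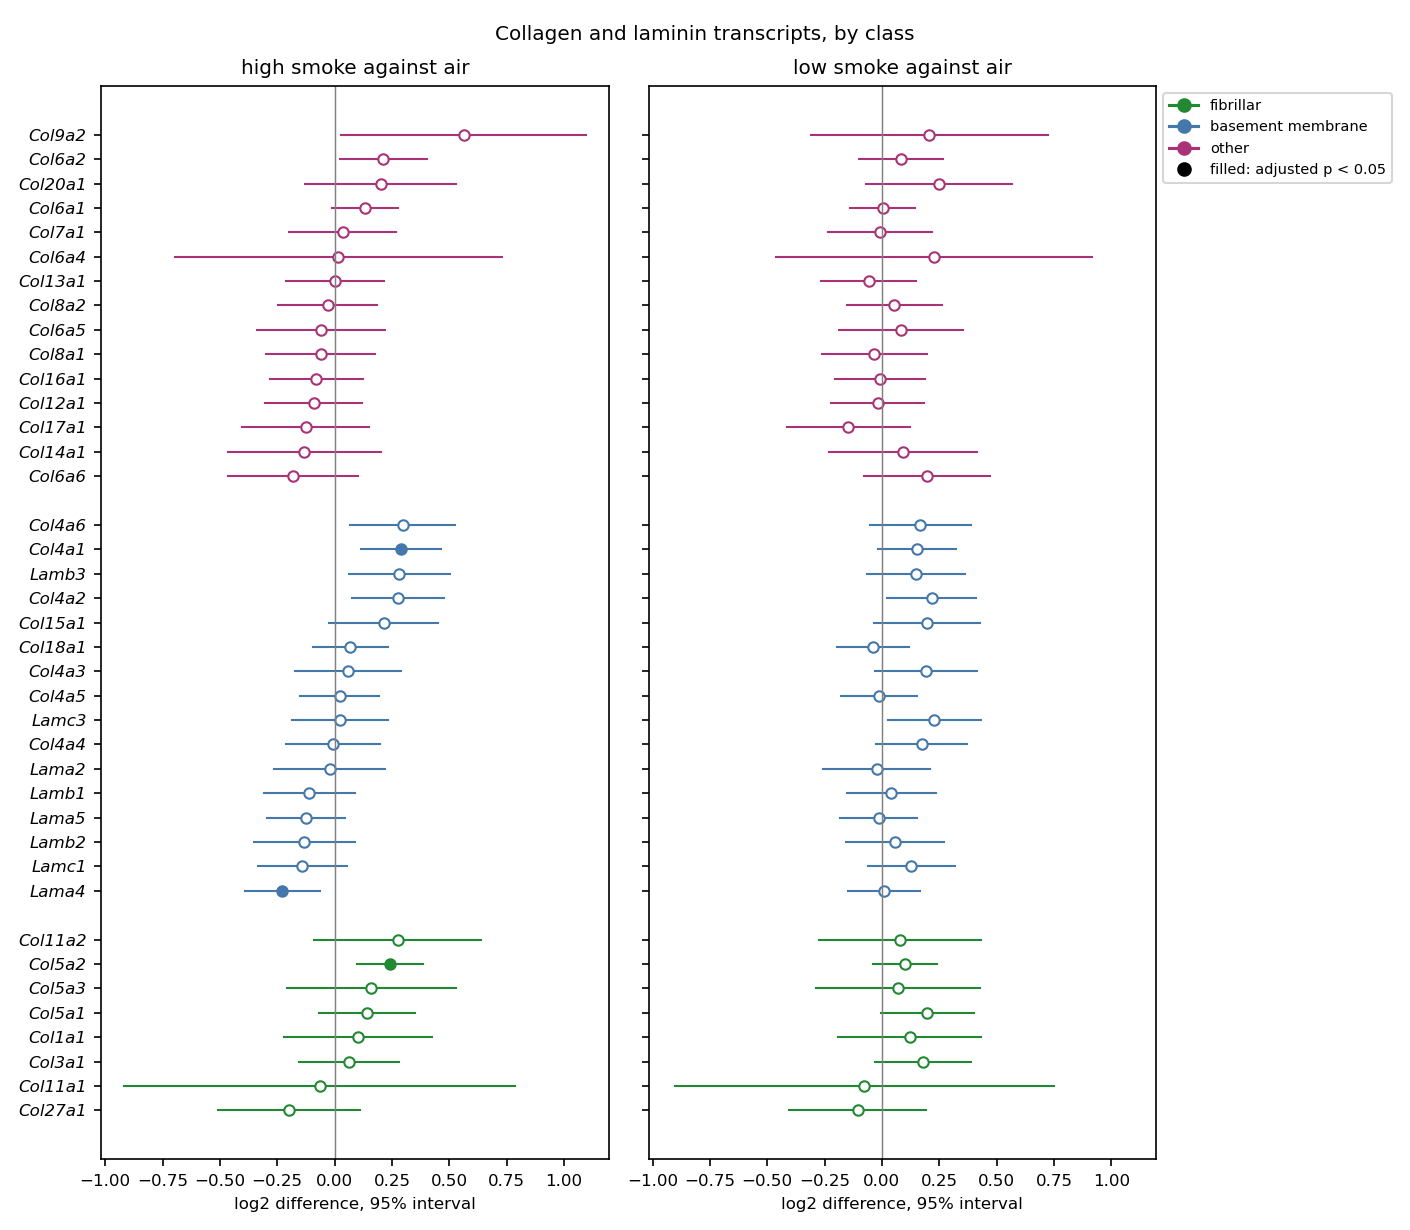
Log2 difference (x axis) of 39 of the 40 tested members (y axis, by class) in high smoke against air (left) and low smoke against air (right); bars are 95% intervals, and filled points passed an adjusted p of 0.05. Col4a1, Lama4 and Col5a2 are filled on the left and none on the right.

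The second comparison asked whether the lower smoke level had an effect. No member passed, and neither did any of the 14414 genes in limma (0 called, 0%); 923 genes, or 6.40%, had an unadjusted p below 0.05, and the rank-sum test also called 0. No member had groups that did not overlap (0.0416% of all genes). Of the members, 2 of 40 had such an unadjusted p, both basement membrane chains with all 8 low smoke libraries above the air mean. Col4a2 stood at 0.22 with an interval of 0.02 to 0.41, and Lamc3, a gamma chain, at 0.23 with an interval of 0.03 to 0.43 (limma adjusted p = 0.737 for both). Lamc3 had 123, 169 and 194 in air, 165, 186 and 229 in low smoke and 145, 165 and 195 in high smoke, so that its median was highest at the lower smoke level.

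More members lay above than below their air level: 27 of the 40, with a median of 0.08, beside 0.0031, 51.1% above 0 and 48.9% below 0 for all genes; with libraries scaled to the same total it was 25 of 40 and 0.05. Col4a1 (0.15), Col4a3 (0.19), Col4a4 (0.17) and Col5a2 (0.10) also had all 8 low smoke libraries above the air mean of the log2 values. Against the mean of the counts it was 6 of 8 for Col4a3 and Col4a4 and 7 of 8 for Col5a2. Col5a1 (0.20), Col3a1 (0.18), Col20a1 (0.25) and Col6a6 (0.20) stood above 0 and Col17a1, a collagen of epithelial anchoring, at -0.15, with adjusted p of 0.771 or more. Both smoke comparisons use the same 7 air libraries, so these differences share their baseline. Air held the widest spread of some chains: Col4a4 ran from 6494 to 11735 in air, from 9007 to 11322 in low smoke and from 8175 to 9784 in high smoke.

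The third comparison set the higher smoke level against the lower. No member passed, whereas 6.78% of all genes did (977 in limma, 3.80% higher and 2.98% lower; 414 up and 633 down when scaled to the same total, 475 and 530 at the same upper quartile), and 5 of 40 members had an unadjusted p below 0.05, against 25.6% of all genes. Differences lay above 0 for 18 members and below 0 for 22 (50.2% and 49.8% of all genes), or for 13 and 27 when scaled to the same total, and no member had groups that did not overlap (0.694% of all genes). Of the 5 with such an unadjusted p, 3 were laminin chains below their low smoke level. Lama4 stood at -0.23 (limma adjusted p = 0.0595) with all 7 high smoke libraries below the low smoke mean. Lamc1 stood at -0.27 (adjusted p = 0.071), with low smoke between 1732 and 2302 and 6 of 7 high smoke libraries below its mean. Lamc3 stood at -0.21 (adjusted p = 0.188). The other 2 were Col6a6, an alpha chain of type VI collagen (-0.38, adjusted p = 0.0812), and Col5a2 (0.14, adjusted p = 0.194).

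Col6a6 was between 363 and 853 in air (median 632), between 606 and 885 in low smoke (median 718) and between 465 and 650 in high smoke (median 562). All 7 of its high smoke values lay below the low smoke mean. With libraries scaled to the same total, Lama4 (-0.28), Lamc1 (-0.31) and Col6a6 (-0.42) passed, with adjusted p of 0.035, 0.0407 and 0.0468. Without high smoke replicates 1, 3 and 7 the 3 stood at -0.24, -0.21 and -0.28 and no gene of the whole table passed. Col4a1 (0.14), Col4a2 (0.06), Col11a2 (0.20), Col6a1 (0.13), Col6a2 (0.13), Col1a1 (-0.02), Col3a1 (-0.11), Lama5 (-0.11) and Lamb2 (-0.19) had adjusted p from 0.235 to 0.953.

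Ratios between related chains were compared within each library, where the size factor cancels. The 8 pairs were Col1a1 to Col3a1, Col4a1 to Col4a2, Col4a3 to Col4a4, Col5a1 to Col5a2, Col6a1 to Col6a2, Col8a1 to Col8a2, Lamb1 to Lamb2 and Lama4 to Lama5; some share a trimer and others are alternatives to each other. The ratio of Col4a1 to Col4a2 had a mean ± SD of 2.81 ± 0.297 over the 7 air libraries, 2.68 ± 0.186 over the 8 of low smoke and 2.83 ± 0.248 over the 7 of high smoke. The ratio of Col4a3 to Col4a4 was 0.350 ± 0.0186, 0.355 ± 0.0169 and 0.367 ± 0.0284 in the same order. These are ratios of counts that were not divided by transcript length, so they show whether a ratio shifts and not how much of each chain is present. None of 24 exact two-sided permutation tests (8 pairs, 3 comparisons) passed after adjustment, the lowest adjusted p being 0.916. The smallest unadjusted p, 0.0446, was that of Col5a1 to Col5a2, which was 0.133 ± 0.0150 in high smoke and 0.153 ± 0.0186 in low smoke.

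Across rats within groups, Col4a1 varied with Col4a2, and Col4a3, Col4a4 and Col4a5 varied together. With group means removed, Col4a3 and Col4a4 had a Pearson r of 0.92 over 22 libraries (permutation p = 1e-05, the smallest that 100000 permutations can give; adjusted p = 8e-05 over 8 pairs; Spearman rho 0.84, p = 2e-05). Without the 2 libraries farthest from the median, air replicates 3 and 2, r was 0.85, and within groups it was 0.97 (air), 0.88 (low smoke) and 0.74 (high smoke). Col4a1 and Col4a2 had r = 0.74 (permutation p = 0.00013, adjusted p = 0.00052; rho 0.74, p = 0.00031), 0.66 without high smoke replicates 1 and 4, and 0.64, 0.75 and 0.82 within the groups. Without high smoke replicates 1, 3 and 7 these 2 values were 0.94 and 0.75, and with libraries scaled to the same total 0.91 and 0.70. These are the pairs whose start regions are printed above, at 413 and 77 bases between start sites. A part of these regions in the shared variation was not tested.

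All 780 pairs of the 40 tested members were then computed, a family chosen after values had been seen. Their median r was 0.12, and the 12 pairs with an adjusted permutation p of r below 0.05 were all positive. The adjusted p given over these 780 pairs are those of r unless said to be of rho. Col4a5, on another chromosome, went with the alveolar set: r was 0.84 with Col4a4 (rho 0.79, adjusted permutation p = 0.0065) and 0.79 with Col4a3 (rho 0.81, adjusted permutation p = 0.0113), falling to 0.75 and 0.70 without air replicates 3 and 2. In contrast, the 6 pairs between Col4a1 or Col4a2 and Col4a3, Col4a4 or Col4a5 had r from -0.02 to 0.15. Col4a6 had r = 0.55 with Col4a2, 0.53 with Col4a1 and 0.34 with its head-to-head neighbour and known trimer partner Col4a5 (adjusted permutation p = 0.578); the difference between these r was not tested. In gene coordinates of build rn6, Col4a4 and Col4a3 lie 372 bases apart, and Col4a2 and Col4a1 83599, unlike the 77 bases between their start sites in GRCr8.

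**Figure D3:**
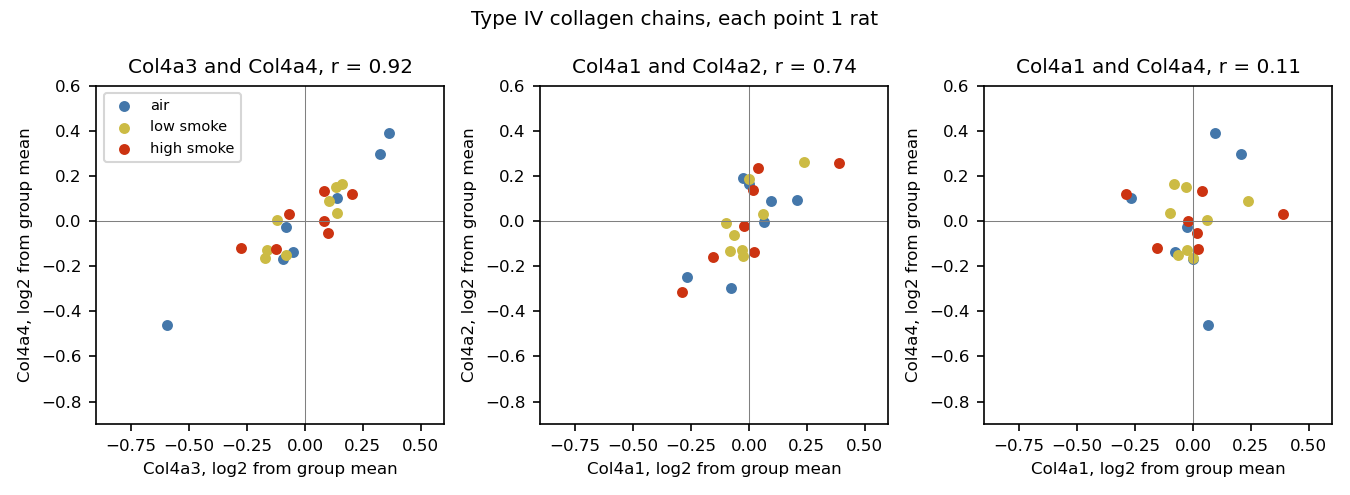
Type IV chains across 22 rats, as log2 of the normalized count less the group mean on both axes, with points coloured by group. Col4a3 with Col4a4 (r = 0.92) and Col4a1 with Col4a2 (r = 0.74) lie along a line, and Col4a1 with Col4a4 (r = 0.11) does not.

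Several laminin chains also varied together. Lamb1 and Lamc1, which occur together in several laminin trimers, had r = 0.78 (rho 0.74, adjusted permutation p = 0.0065 over 780 pairs), and 0.74 without air replicate 6 and low smoke replicate 2. Lama4 and Lamc1 had r = 0.74 (adjusted permutation p = 0.0188), whereas their rho of 0.69 did not pass (adjusted permutation p of rho = 0.108). The 2 beta chains Lamb1 and Lamb2 had r = 0.63 (rho 0.63, permutation p = 0.00211 and adjusted p = 0.00563 over 8 pairs) and kept 0.66 without air replicate 6 and low smoke replicate 2. Over the 780 pairs Lamb1 with Lamb2 did not pass (adjusted permutation p = 0.121).

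Among the collagens beyond type IV, Col3a1 went with Col5a1 (r = 0.73, adjusted permutation p = 0.0113 over 780 pairs). Their rho of 0.68 did not pass (adjusted permutation p of rho = 0.0725). Col3a1 also went with Col1a1 (r = 0.55, rho 0.52, adjusted permutation p = 0.0283 over 8 pairs). That r was 0.44 without low smoke replicate 5 and air replicate 5. Col5a1 with Col5a2 (0.32), Col6a1 with Col6a2 (0.31), Lama4 with Lama5 (0.46) and Col8a1 with Col8a2 (-0.33) did not pass (adjusted permutation p from 0.118 to 0.209). Other pairs whose r was past the threshold among the 780 included Col6a6 with Col4a4 (0.84) and Col4a3 (0.83), Col12a1 with Col4a5 (0.83) and Col7a1 with Lamb2 (0.79). By rho, Col6a6 with Col4a4 and with Col4a3 did not pass (adjusted permutation p of rho = 0.0725 and 0.137). Without air replicates 3 and 2, Col6a6 had r of 0.70 with Col4a4 and 0.66 with Col4a3. Within groups its r with Col4a4 was 0.94 (air), 0.42 (low smoke) and 0.92 (high smoke). That of Col12a1 with Col4a5 was 0.96, 0.33 and 0.94 in the same order. Libraries share tissue makeup, so the mean log2 level of 11 marker lists was set against the mean of each type IV set. None of the 22 correlations passed (adjusted permutation p of 0.217 or more). The alveolar set had its highest r with airway basal (0.47, 3 markers tested), mesothelial (0.45) and alveolar type 1 markers (0.42). Without air replicates 3 and 2 these were 0.37, 0.27 and 0.38. For airway basal markers r was 0.76 (air), 0.29 (low smoke) and -0.24 (high smoke). In the same order it was 0.66, 0.31 and 0.25 for mesothelial markers and 0.46, 0.30 and 0.91 for alveolar type 1 markers. The lowest r of the alveolar set were with smooth muscle and pericyte (-0.50) and endothelial markers (-0.50), or -0.335 and -0.309 without air replicates 3 and 2. Col4a1 with Col4a2 had 0.41 with endothelial markers.

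**Figure D4:**
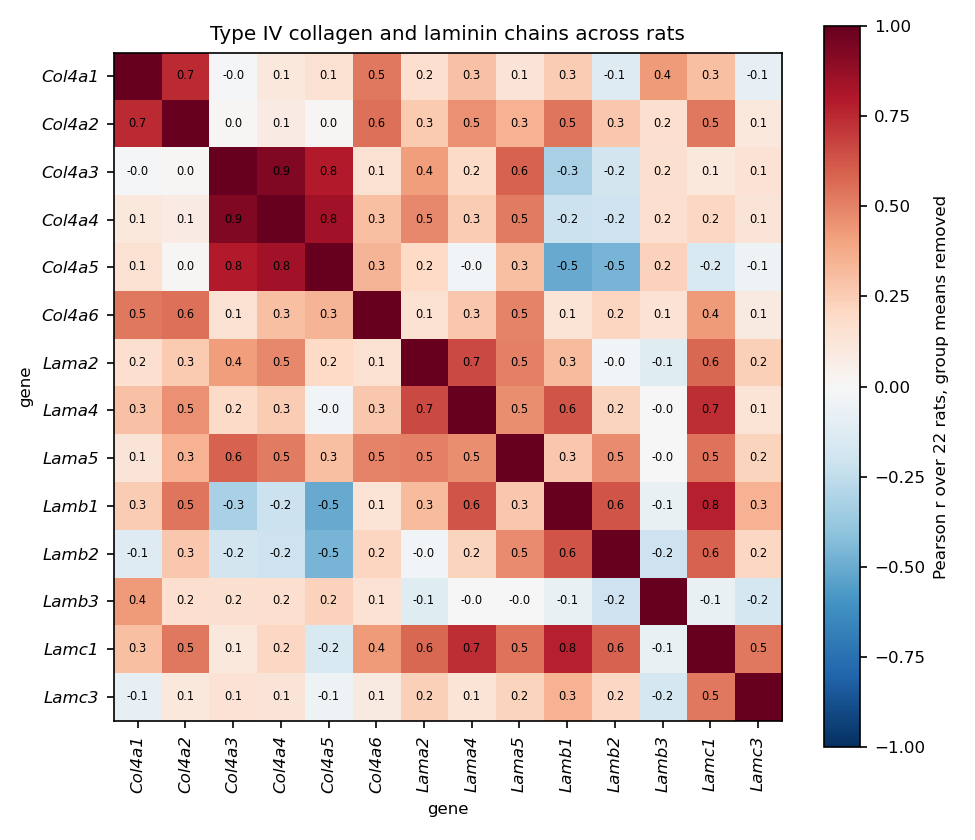
Pearson r over 22 rats between 14 type IV collagen and laminin chains, on log2 values with group means removed; both axes list the chains and colour runs from -1 (blue) to 1 (red). High r joins Col4a3, Col4a4 and Col4a5, joins Col4a1 and Col4a2, and joins Lamc1 with Lamb1 and with Lama4. Lama2 with Lama4 (0.66), Lama4 with Lamb1 (0.63) and Lamb1 with Lamb2 (0.63) did not pass over 780 pairs.

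Genes that fold, trim and bind these chains were read from lists made for this purpose. In high smoke against air, 3 rose and 1 fell of 28 enzymes and chaperones of collagen maturation (median 0.06). These 4 are 14.3% of the list, against 16.3% of all genes. The share past the threshold was 18.8% of the basement membrane partners, 13.3% of the receptors, 30.8% of the fibril assembly genes, 0% of the turnover genes and 18.8% of the regulators described next. Ppib, cyclophilin B of the complex that modifies collagen in the endoplasmic reticulum, had 884, 1047 and 1271 in air, 1105, 1214 and 1305 in low smoke, and 1333, 1418 and 2257 in high smoke. Every high smoke value of Ppib lay above every air value, and 1.87% of all genes had groups that did not overlap. It rose 1.54-fold (1.33 to 1.78; limma adjusted p = 0.000561), passed in all 22 fits without 1 library and stood at 0.38 without high smoke replicates 1, 3 and 7 (adjusted p = 0.0238). Ppib also rose against low smoke (0.43, adjusted p = 0.0197), where without those 3 libraries it was 0.19 (adjusted p = 0.71).

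Plod1, a lysyl hydroxylase, rose 1.38-fold from 405, 429 and 513 in air to 494, 631 and 721 in high smoke (0.47, limma adjusted p = 0.00143), and P3h1, a prolyl hydroxylase that works in a complex with Ppib, rose by 0.28 (adjusted p = 0.0226). P4hb, the disulfide isomerase that is also a subunit of prolyl hydroxylase, fell by 0.25 (adjusted p = 0.0352). Without the 3 libraries that stood apart, Plod1 (0.37, adjusted p = 0.0765), P3h1 (0.21) and P4hb (-0.21) did not pass. P3h1 also lost its call without air replicate 1, air replicate 2 or high smoke replicate 1, and P4hb without air replicates 1 or 3 or high smoke replicates 3 or 7.

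Of 16 tested basement membrane partners, 1 rose and 2 fell (median -0.17). Sparc, a collagen-binding protein of the matrix, rose by 0.33 in log2 units (limma adjusted p = 0.0202), with medians of 26989 in air and 33999 in high smoke. Agrn, the heparan sulfate proteoglycan agrin, fell by 0.34 (limma adjusted p = 0.00496), with medians of 4315 in air and 3641 in high smoke. Npnt, nephronectin, an integrin ligand, fell by 0.38 (limma adjusted p = 0.0186), with medians of 1003 and 800. Agrn and Npnt also fell against low smoke, by 0.29 and by 0.42. With high smoke replicates 1, 3 and 7 left out, Agrn stood at -0.20 (adjusted p = 0.219) and Npnt at -0.15 (0.510) against air, at -0.14 and -0.19 against low smoke, and Sparc stood at 0.23 against air (0.337). Of the receptors, 1 rose and 1 fell of 15. The collagen receptor kinase Ddr1 rose by 0.44 in log2 units (limma adjusted p = 0.00381). Itga2, the alpha chain of a collagen-binding integrin, fell by 0.72 (limma adjusted p = 0.0422), with medians of 73.7 in air and 50.6 in high smoke. Without those 3 libraries Ddr1 stood at 0.38 (adjusted p = 0.0909) and Itga2 at -0.62 (0.350).

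Of 13 tested genes of fibril assembly, 2 rose and 2 fell. Dcn, decorin, a small proteoglycan on collagen fibrils, rose 1.48-fold (adjusted p = 0.00631 in limma) from 3143, 3912 and 6430 in air to 4779, 6463 and 8067 in high smoke, and by 0.60 against low smoke. Prelp, which ties collagen to basement membranes, rose by 0.30. The matricellular proteins Thbs1 and Tnc fell by 0.37 and by 0.47. Against low smoke Thbs1 fell by 0.53 and Bgn, biglycan, by 0.28 (adjusted p = 0.0174 and 0.0435). Without those 3 libraries, Dcn (0.47), Prelp (0.30), Thbs1 (-0.34) and Tnc (-0.30) against air had adjusted p from 0.167 to 0.495, and Dcn (0.50), Thbs1 (-0.49) and Bgn (-0.16) against low smoke did not pass. None of 10 tested genes of collagen turnover passed in limma at high smoke against air, and 2 had an unadjusted p below 0.05.

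Of 16 regulators of matrix genes, 1 rose and 2 fell in high smoke against air (median -0.09). Tgfb1, a growth factor that raises collagen synthesis, rose by 0.37 in log2 units (limma adjusted p = 0.0276), and its receptor Tgfbr2 fell by 0.37 (adjusted p = 0.0109). Wwtr1, the Hippo coactivator TAZ, fell by 0.83 in log2 units (limma adjusted p = 0.00862), with medians of 275 in air and 189 in high smoke. Tgfbr2, Wwtr1 and Yap1 fell against low smoke by 0.38, 0.78 and 0.33. Without those 3 libraries, Tgfb1 stood at 0.34, Tgfbr2 at -0.24 and Wwtr1 at -0.43 against air (adjusted p = 0.273, 0.305 and 0.258), and Tgfbr2 at -0.25, Wwtr1 at -0.37 and Yap1 at -0.15 against low smoke. In low smoke against air no gene of the 6 lists passed. Without high smoke replicates 1, 3 and 7, Ppib against air was the only call of these lists that remained. Of all 14394 genes tested then, 124 passed against air. For the other calls of the lists the differences against air then ran from -0.62 (Itga2) to 0.47 (Dcn). Calls lost without 1 library at a time were most frequent for Thbs1 (9 of 22 fits), Itga2 (8) and Tnc (7) against air, and for Yap1 (14) and Bgn (10) against low smoke.

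**Figure D5:**
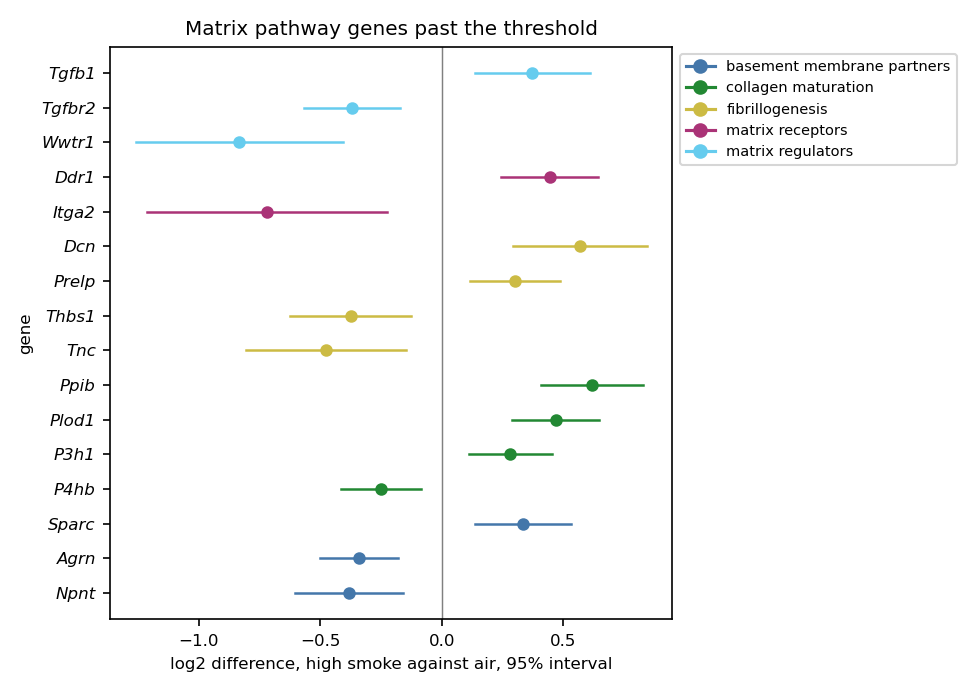
Log2 difference in high smoke against air (x axis, bars 95% intervals) of the matrix pathway genes past an adjusted p of 0.05, coloured by list (y axis, genes). Ppib and Dcn lie highest and Wwtr1 and Itga2 lowest.

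Cell markers moved beside these genes. Of 10 smooth muscle and pericyte markers 3 rose in high smoke against air (Acta2, Cnn1 and Tagln), and their sum was 16467 to 25974 in air, 19048 to 24602 in low smoke and 19937 to 29777 in high smoke. Of 10 fibroblast markers 2 rose (Dcn and Tcf21) and Npnt fell, with sums of 16549 to 23579, 17810 to 21414 and 20510 to 24754; Dcn and Npnt stand on the matrix lists too. Of 8 endothelial markers Cldn5 rose and Tek fell, with sums of 37772 to 46084, 41197 to 52021 and 38402 to 46365. Of 8 alveolar type 1 markers Ager and Hopx rose, with 5 of the list above 0 and 3 below. Of 8 alveolar type 2 markers Sftpc and Napsa rose, with 7 above 0 and 1 below. Of 5 alveolar macrophage markers Cd68 fell, with 4 of the list above 0 and 1 below (median 0.09). Of all genes, 9.21% rose and 7.05% fell. With high smoke replicates 1, 3 and 7 left out, 1 of the type 2 markers passed and none of the other lists here did. Of all 14394 genes tested then, 124 passed. The fibroblast median turned from 0.097 to -0.068 without those libraries. The 7 heart muscle markers, which the muscle sleeves of pulmonary veins can bring into a piece of lung, summed to 112 to 1378, 144 to 1294 and 158 to 1186. The medians of these sums were 433, 237 and 772. All 7 markers lay below 0 in low smoke against air (median -1.18) and above 0 in high smoke against low smoke (median 1.24). In high smoke against air 2 lay above 0 and 5 below. None passed in any of the 3 comparisons, and their source was not tested. None of the markers used was at 0 in every library. The part of these cells in the values of Col4a1, Col5a2 and Lama4 was not tested.

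How steady a chain was between rats of a group varied among the members. The median SD within groups was 0.21 on the log2 scale, beside 0.23 for all genes tested. Col6a1 (0.126) and Col5a2 (0.127) varied least, and Lama4 (0.145) and Col4a1 (0.160) were also among the 5 steadiest. The most variable were Col11a1 (0.82), close to the level limit, and Col6a4 (0.74), which ran from 108 to 870 in air, from 232 to 613 in low smoke and from 185 to 580 in high smoke. Col1a1 had an SD of 0.32, against 0.20 for Col3a1.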

How the data were processed

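Lung RNA of 23 labelled rat samples was sequenced, and 22 have a column in the deposited table. Per the submitters' processing notes, STAR 2.7.3a, Partek, DESeq2 and build rn6 were used. The values the authors deposited are a signal per gene, read here as counts scaled by the size factor of each library; only 80.7 to 82.8% lay within 0.02 of a whole read, so no count model was fitted. Counting annotation and strand are not given in the sources used here. From these values, limma 3.58.1 in R 4.3.3 fitted log2(value + 1) of 14414 genes with a mean of at least 10, all 3 groups in 1 fit with trend, with Benjamini-Hochberg adjustment over all genes, two-sided, threshold 0.05. Differences and fold changes are those of group means of log2(value + 1), so they need not match the medians given beside them. Chain ratios had exact permutation tests, and correlations 100000 permutations within groups. The fit was tested on simulated data. Depth was 8484131 to 12055512 read equivalents (library total divided by the value of 1 read), which limits the precision of low members.

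The members and lists were chosen with earlier results of these data known. Named genes were the members past the threshold, the 3 with the smallest p of each class in each comparison, a fixed set of main chains, the members nearest the level limit, and the pathway genes past the threshold (up to 4 a list and comparison). Col4a6, Lamb3 and other chains shown as families were added after their values were seen. Lists matched 9 of 11 fibrillar, 18 of 20 basement membrane, 28 of 31 maturation, 17 of 18 partner, 17 of 17 receptor, 14 of 16 fibril assembly, 12 of 15 turnover and 16 of 16 regulator genes. Col1a2, Col2a1, Lama3, Lamb4 and Col6a3 were not analysed here, and 1 tested member, included in the counts, is not reported here by name. Each library is from a separate rat, so the group comparisons set differences against the spread between rats. The labels give no batch. Alternatives changed the pseudocount, level limit, scaling, weights, shrinkage, groups fitted, test and libraries.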

Additional observations from a re-analysis of the deposited data

Results flagged for a closer look

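In 120 checks (40 members in 3 groups), 10 values stood apart from the rest of their own group by a gap larger than Dixon's 95% limit; chance gives about 1 in 20 groups. Low smoke replicate 2 held 3 of them: Col4a5 at 2140.3 normalized counts below the others at 2554.8 to 2757, Lama2 at 1187.6 above 764.6 to 929.8, and Lama4 at 1080.7 above 771.6 to 902.3. High smoke replicate 1, which also stood apart on the first principal component, held the highest Col4a1, 14041 above 8797 to 11023, and the highest Col15a1, 1597.4 above 1013.2 to 1246.5. Low smoke replicate 5 held the highest Col4a1 of its group, 11534 above 9140 to 10188, and the highest Col11a1, 31.2 above 2.94 to 15.4. High smoke replicate 6 held the highest Lamc1, 2149.1 above 1436.8 to 1707.8, and the highest Col6a5, 3293.9 above 1792.5 to 2330.8. Air replicate 3 held the highest Col9a2 of its group, 31.3 above 9.25 to 17.7.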

How the results depend on the processing

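The counts of calls and the named differences were recomputed in up to 12 other settings and without each of 22 libraries in turn. In high smoke against air, 3 members passed; the count was 1 with libraries scaled to the same total, 0 in a fit of only the 2 groups, 0 with the rank-sum test and 0 without high smoke replicates 1, 3 and 7, and 0 to 5 without 1 library (0 without high smoke replicate 1, 1 without air replicate 1 or high smoke replicate 3, 5 without air replicate 3 or high smoke replicate 4). Of all genes 2343 passed, against 1351 (only the 2 groups), 746 (rank-sum), 124 (without those 3 libraries) and 1453 to 2863 (without 1 library; 1453, 1461 and 1550 without high smoke replicates 1, 3 and 7). In high smoke against low smoke no member passed, against 1 at a mean of at least 50, 3 scaled to the same total, 1 scaled to the same upper quartile, 2 in a fit of only the 2 groups and 0 to 2 without 1 library (2 without high smoke replicate 6, 1 without air replicate 3 or 7); of all genes 977 passed, against 183 (rank-sum), 0 (without the 3 libraries) and 29 to 1651 (without 1 library). The latter count was 35, 51 and 29 without high smoke replicates 1, 3 and 7, 1651 and 1575 without replicates 4 and 6, and 316, 296, 550 and 399 without low smoke replicates 1, 2, 3 and 4. In low smoke against air no gene passed, against 1 without the 3 high smoke libraries and 0 to 2 without 1 library (2 without air replicate 5).

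Among the members named by the rule, directions turned only for differences that had not passed. Without high smoke replicates 1, 3 and 7, Col1a1 (-0.027) and Lamb2 (0.041) turned against air and Col4a2 (-0.0074) against low smoke; of other members given above, Col4a4 (0.029) and Col6a4 (-0.089) turned against air. Scaled to the same total, Col3a1 turned in high smoke against air (-0.013) and Col6a1 (-0.032) and Lama4 (-0.028) in low smoke against air. Col6a1 also turned at the same upper quartile (-0.0013) and Lama4 with array weights (-0.044). Leaving out 1 library turned 18 values of 4 differences, which ran from -0.025 to 0.028 (Col6a1), from -0.086 to 0.028 (Lama5) and from -0.034 to 0.046 (Lama4) in low smoke against air, and from -0.0997 to 0.078 (Col1a1) in high smoke against low smoke. The cause was not tested. Counting Col15a1 and Col18a1 as other collagens changed no class count. The 8 chain correlations kept their direction and side of the threshold under both added settings. No paired analysis was possible because replicate numbers were given in accession order and pair no rats.

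Intervals were widest for Col11a1 and Col6a4, then Col9a2; Col11a1 and Col9a2 lie near the level limit, where depth limits precision. The 8 members below that limit were not tested.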
